A study of Mus musculus with 2 samples.

Results

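Captured methylated DNA in mouse testis was examined at 10 genes of heterochromatin and retrotransposon silencing: Setdb1, Trim28, Ehmt1, Ehmt2, Suv39h1, Suv39h2, Cbx1, Cbx3, Cbx5 and Morc1. Members were the 100 bp windows of the deposited table that overlap the mm10 span of each gene plus 1 kb on each side. This gave 515 windows for the 10 genes, of 2537435 windows in the table and 21883 protein-coding genes in the annotation. DNA of C57BL/6 testis was sheared, fragments with methylated CpGs were captured on beads carrying the MBD domain of MBD2, and the eluted fragments were sequenced. The first of the 2 libraries came from testis labelled wildtype. The other came from testis of genotype Kaiso KO, whose donor was labelled as a sterile male of generation 3 offspring. Kaiso is a zinc finger protein, encoded by Zbtb33, that binds methylated DNA. The description of the knockout sample also calls its testis wildtype, so each knockout value rests on the genotype label. Age and the deleted part of the allele were not given in the sources used here, and nothing describes more than 1 animal per genotype.

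The 10 genes act in the pathway that packs repeats into silent chromatin. KRAB zinc finger proteins recruit the corepressor Trim28 (KAP1), which brings the histone methyltransferase Setdb1 to retrotransposons. Ehmt1 (GLP) and Ehmt2 (G9a) form a heteromeric histone H3 lysine methyltransferase of euchromatic regions, and Suv39h1 and Suv39h2 trimethylate the same lysine at pericentromeric repeats. Cbx5, Cbx1 and Cbx3 encode the heterochromatin proteins HP1 alpha, beta and gamma, which bind that methylated lysine. Morc1 encodes a germ cell ATPase needed for transposon repression and DNA methylation in the male germline.

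RefSeq promoter sequences (GRCm38.p6, the assembly of mm10; 250 bases before to 50 after the start) were matched for 9 of the 10 genes, as 13 sequences. The 4 below belong to the genes that had listed windows within 1 kb of the 5′-most start, and are shown because those windows lie beside, and not inside, the CpG-rich promoter. Capitals mark CpGs, and each sequence reads 5′ to 3′ on the strand of the gene. They are Setdb1 on the minus strand at chr3:95357153-95357452, Ehmt1 on the minus strand at chr2:24919560-24919859, Suv39h1 on the minus strand at chrX:8074711-8075010 and Cbx1 on the plus strand at chr11:96788885-96789184.
Setdb1: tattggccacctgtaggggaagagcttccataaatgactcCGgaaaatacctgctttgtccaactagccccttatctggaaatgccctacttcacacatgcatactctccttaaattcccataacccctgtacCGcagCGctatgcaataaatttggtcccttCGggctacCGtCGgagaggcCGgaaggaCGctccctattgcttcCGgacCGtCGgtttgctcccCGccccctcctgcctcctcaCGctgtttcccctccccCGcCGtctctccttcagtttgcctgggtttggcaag
Ehmt1: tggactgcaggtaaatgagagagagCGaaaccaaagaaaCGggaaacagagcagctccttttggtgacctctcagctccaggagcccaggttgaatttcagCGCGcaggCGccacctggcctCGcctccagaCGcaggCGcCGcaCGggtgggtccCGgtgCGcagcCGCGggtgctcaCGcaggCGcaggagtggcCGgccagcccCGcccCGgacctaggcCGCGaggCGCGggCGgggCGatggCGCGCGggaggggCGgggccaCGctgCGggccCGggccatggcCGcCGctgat
Suv39h1: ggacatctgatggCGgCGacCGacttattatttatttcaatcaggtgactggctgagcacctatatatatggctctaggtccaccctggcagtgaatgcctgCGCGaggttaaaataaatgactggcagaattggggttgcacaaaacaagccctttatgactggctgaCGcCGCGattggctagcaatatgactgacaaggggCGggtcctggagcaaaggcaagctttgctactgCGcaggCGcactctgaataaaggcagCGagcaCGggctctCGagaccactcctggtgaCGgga
Cbx1: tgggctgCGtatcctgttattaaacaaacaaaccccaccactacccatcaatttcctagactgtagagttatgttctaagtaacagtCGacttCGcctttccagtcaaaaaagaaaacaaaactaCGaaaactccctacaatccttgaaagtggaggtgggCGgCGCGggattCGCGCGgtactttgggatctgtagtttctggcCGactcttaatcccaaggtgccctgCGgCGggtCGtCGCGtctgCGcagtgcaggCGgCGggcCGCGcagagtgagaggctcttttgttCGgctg

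The Setdb1 and Suv39h1 sequences hold 15 CpGs each, that of Cbx1 22 and that of Ehmt1 34, against a median of 7 over 32851 promoters of this length and 29 over the 13 of these genes. None of the 13 promoters overlapped a listed window. The nearest listed window lay 535 bp from the start of Cbx1, 602 bp from that of Setdb1, 741 bp from that of Suv39h1 and 792 bp from that of Ehmt1. For Cbx3 the nearest one inside the gene lay 4885 bp from the upstream start. Windows more than 1 kb outside a gene were not searched for these distances. The letters CGCG and TCCTGCNA, both described as Kaiso binding motifs, were searched on both strands. CGCG, which reads the same on both strands, was found in 11 of the 13 promoters and in 38.0% of all, and TCCTGCNA in 0 of the 13 and in 4.96% of all. A match describes the letters only.

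Libraries held 87710791 wildtype and 98549116 knockout reads, as given by the count and RPKM of each window, where RPKM is the count per kilobase of window scaled to the reads of its library. The table lists only windows whose deposited p-value was below 0.05, so a window outside the table was not shown to be unchanged, and ratios of listed windows are pushed away from 1. Zbtb33 had 303 wildtype and 83 knockout counts in 16 listed windows, a log2 ratio of knockout over wildtype of -2.04 (95% interval -2.80 to -1.31), but captured DNA is no measure of expression and the deleted part is not known here, so this does not check the label. With 1 library per genotype no difference has a replicate check and no test across animals was possible. Intervals come from the exact Clopper-Pearson limits on the share of fragments from the knockout library and cover counting error only.

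Over the whole gene span plus 1 kb, all 10 genes reached the minimum of 20 fragments, and 0 of 10 were called higher and 0 lower. A call needed a difference of 2-fold or more in either direction with an interval that excludes a ratio of 1. Of 19221 protein-coding spans with the minimum, 9.64% were called higher and 5.64% lower. The median log2 ratio of the 10 genes was 0.091, against 0.31 over all spans, and 6 lay above 0 and 4 below. Signs depended on scaling: when CpG-dense windows (at least 5 CpGs) were centred on 0, all 10 lay below 0, and 8 lay above under the scaling of the authors' deposited fold change. Setdb1 was at the top of the 10 with 0.56 (0.26 to 0.87), at the 76.1 percentile of all spans. Cbx1 was at the bottom with -0.75 (-1.37 to -0.15), at the 7.50 percentile. Both ranks depended on the flank. With 5 kb on each side Cbx3 was at the top with 0.55, and Setdb1 had 0.091. Suv39h1 was then at the bottom with -0.63, and Cbx1 had -0.38.

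**Figure D1:**
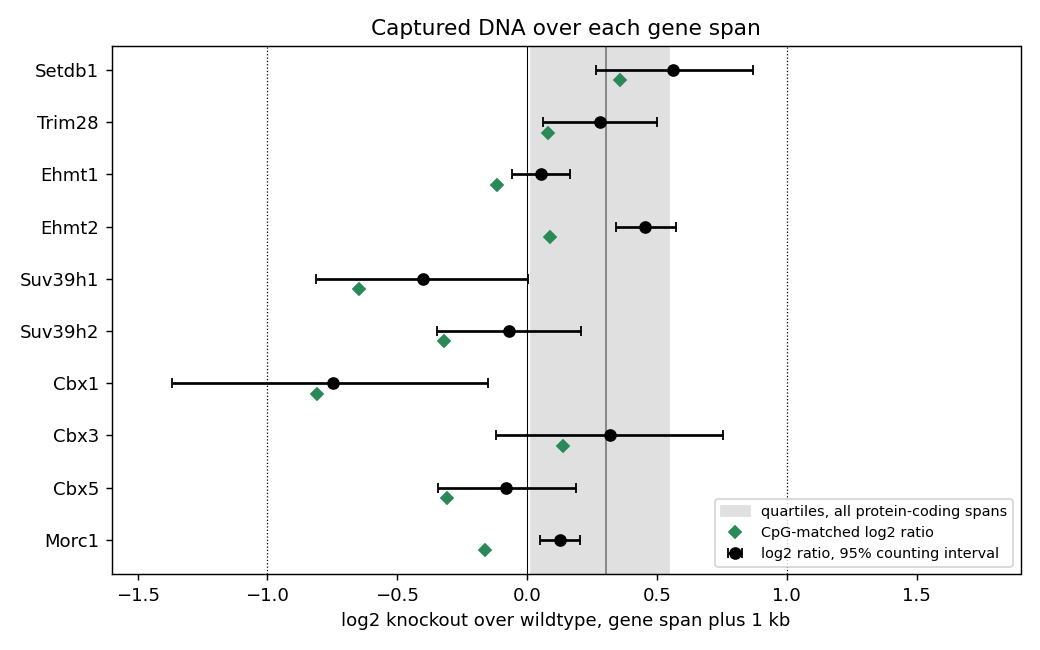
Log2 ratio of knockout over wildtype counts (x axis) over the span plus 1 kb of each gene (y axis). Circles and bars are the ratio and its 95% counting interval, diamonds the ratio after matching on CpG content, and the grey band the quartiles of all protein-coding spans around their median (grey line, 0.31). Dotted lines mark 2-fold. All 10 circles lie between -0.75 and 0.56.

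Window by window, the 515 split nearly evenly, with 261 higher and 254 lower in the knockout library, or 50.7% higher against 56.5% of all listed windows. Differences of 2-fold or more upward were seen in 48 windows (9.32%, against 17.6% of all listed windows) and downward in 221 (42.9%, against 38% of all). Morc1 and Ehmt1, the longest genes, held 321 of the 515. Without these 2 genes 57.2% of 194 windows were higher. No window was shared between genes.

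**Figure D2:**
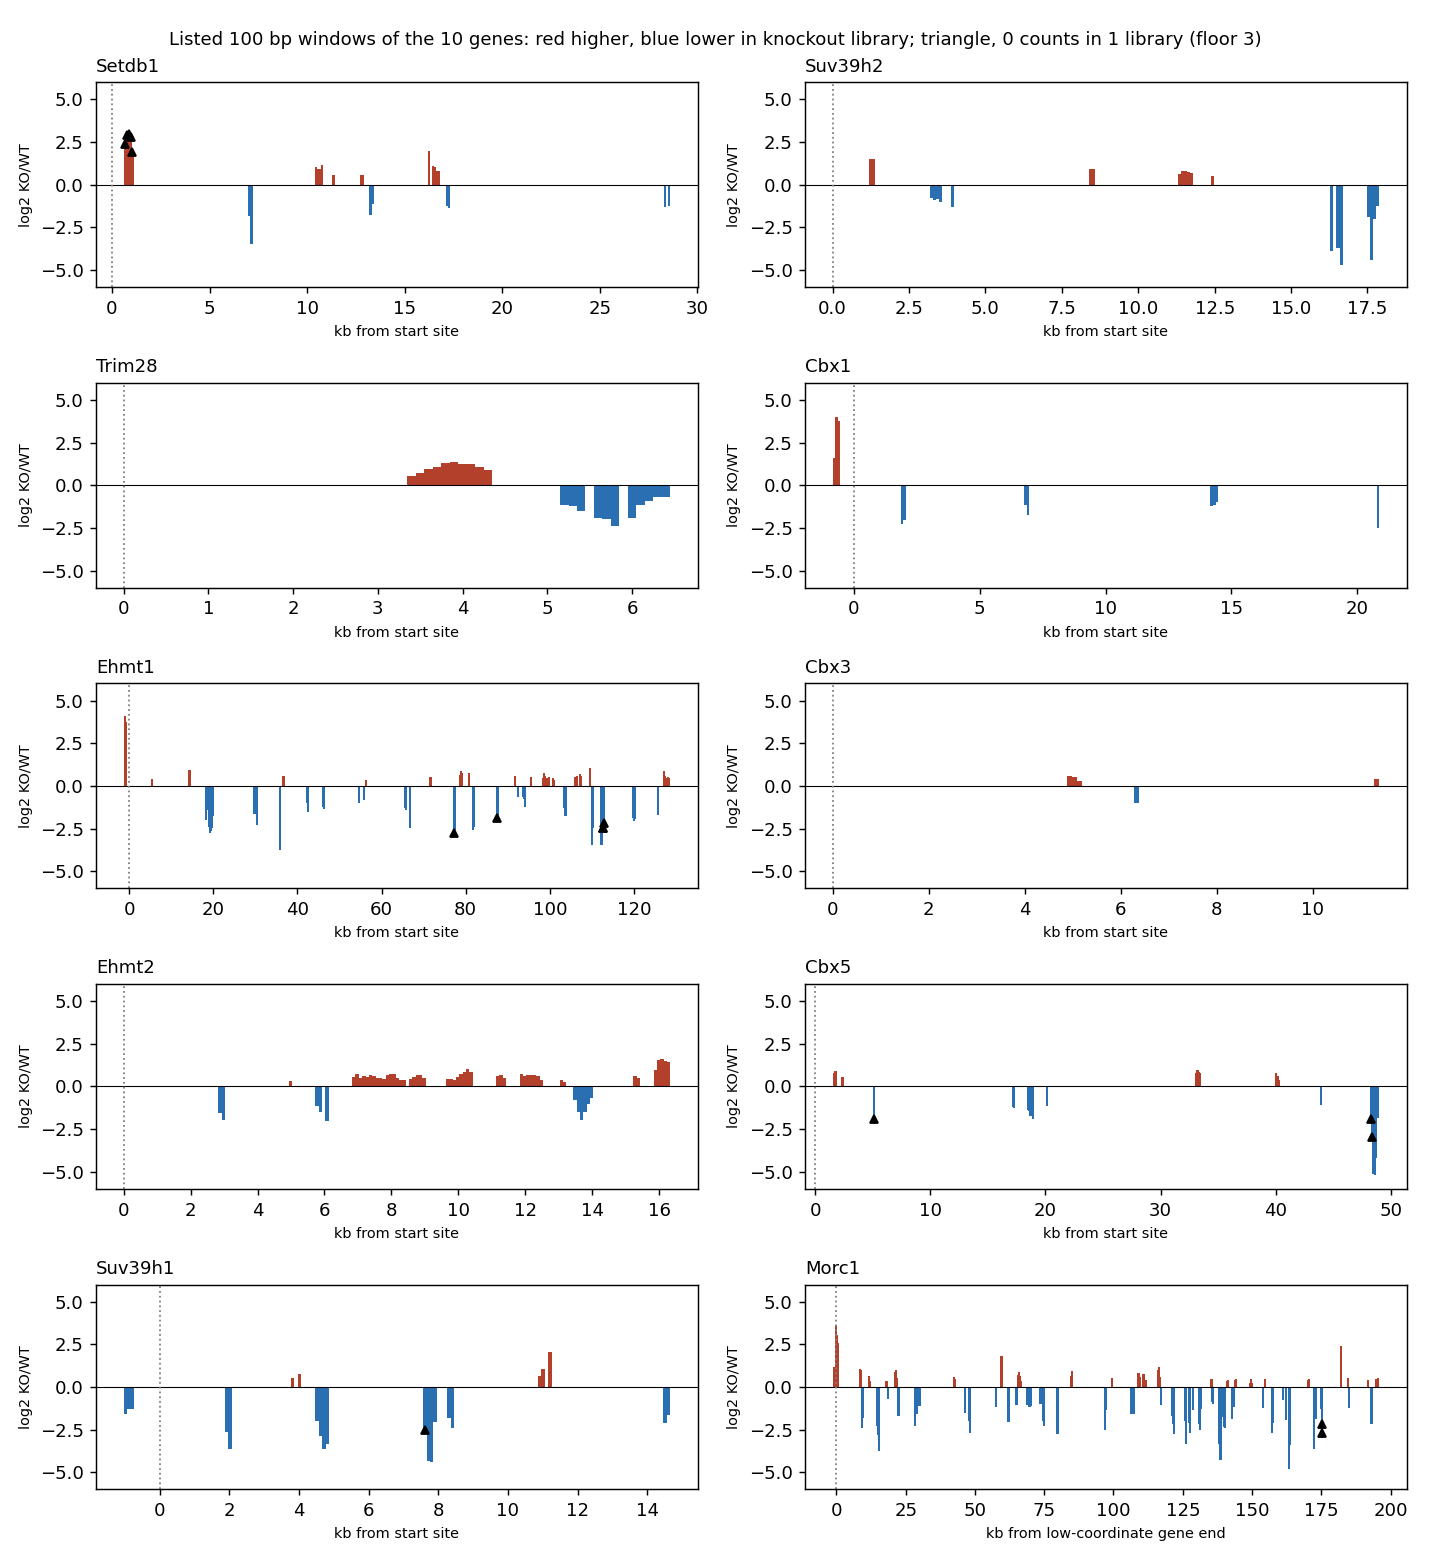
Listed windows along each gene, placed by kb from the 5′-most start site (from the low-coordinate gene end for Morc1), with the log2 ratio of knockout over wildtype on the y axis. Red bars are windows higher and blue bars windows lower in the knockout library, and triangles mark windows with 0 counts in 1 library, set to a floor of 3. Higher and lower stretches alternate within most genes, and higher windows stand beside the start of Setdb1, Ehmt1, Cbx1 and at the low-coordinate end of Morc1.

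Setdb1 (chromosome 3, 95323525 to 95357202, minus strand), the methyltransferase recruited by Trim28, had 25 of its 357 windows in the table, which summed to 594 wildtype and 984 knockout counts. Its 5 windows nearest the start, from 95356101 to 95356600, held 0 wildtype counts each and 13, 23, 27, 25 and 18 knockout counts in order of position. In RPKM the knockout values were 1.32, 2.33, 2.74, 2.54 and 1.83. They formed 1 unbroken run inside the gene, 602 to 1102 bp downstream of the start, with 2 to 6 CpGs per window. Windows without a wildtype count made up 1.24% of all listed windows, and 1322 runs of at least 5 such windows were found in the genome. Over the 4 of them within 1 kb of the start, the knockout library had 93 counts against 0, at least 6.90-fold higher than a floor of 3 wildtype fragments (log2 interval from 2.36). That made it the 1 called higher of the 2 start regions of these genes with 20 fragments, against 51.9% called higher and 13.8% lower among 5609 start regions of all genes.

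Across the rest of Setdb1 both directions occurred. Runs from 95340401 to 95340800 and from 95346401 to 95346800 had 110 and 105 wildtype against 235 and 237 knockout counts (log2 0.93 and 1.01). Its window with the highest counts, from 95344401 to 95344500 with 7 CpGs, had 78 and 130. The lowest ratio was in a window from 95350001 to 95350100, with 10 wildtype counts and 1 knockout count. The higher stretch at the start was local: from 95358501 to 95359200, 1 to 2 kb upstream of the start, all 5 listed windows were lower, with 175 wildtype and 80 knockout counts, and with 2 kb on each side of the start the log2 ratio was -0.080 and not called. No listed window of Setdb1 lay within 500 bp of the start.

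Ehmt1 (chromosome 2, 24790769 to 24919643, minus strand), which encodes the GLP subunit, had 113 listed windows and an almost even total of 4865 wildtype and 5674 knockout counts (log2 0.054, -0.058 to 0.17). Upstream of its start, 1 wildtype and 15 knockout counts were found from 24920401 to 24920500, and 2 and 38 from 24920601 to 24920700, the latter with 5 CpGs. These windows together had a log2 ratio of 3.97 (0.80 to 8.94), on 14 fragments, below the minimum for a call. The stretch went on outward: from 24920701 to 24921700 all 8 listed windows were higher, with 78 wildtype and 357 knockout counts, and with 2 kb on each side of the start the log2 ratio was 2.17 and called higher. Without both ends the log2 ratio of the Ehmt1 body was 0.0069 (-0.11 to 0.12).

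Along Ehmt1, 9 runs of at least 3 adjacent higher windows had log2 ratios of 0.40 to 0.70, and 14 lower runs had -2.81 to -0.78. Higher windows had a median of 7.07 RPKM in wildtype and 10.4 in knockout, and lower windows 2.68 and 0.710. The lower windows were thus the less captured ones in wildtype. The longest run, 5 higher windows from 24840401 to 24840900, had 80, 74, 70, 54 and 43 wildtype and 127, 140, 134, 110 and 76 knockout counts (log2 of the sums 0.70). The window with the highest counts, from 24818801 to 24818900, had 103 wildtype and 156 knockout counts. Of the 113 windows 5 held 0 knockout counts, 3 of them adjacent from 24806801 to 24807100 with 12, 15 and 15 wildtype counts. The others, from 24832001 to 24832100 and from 24842301 to 24842400, had 10 and 18 wildtype counts. Windows without a knockout count were 1.5% of all listed windows.

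Ehmt2 (chromosome 17, 34898463 to 34914073, plus strand), the G9a partner of Ehmt1, differed in shape. It had 60 listed windows, the densest listing of the 10 at 34.1% of its windows, and 49 were higher. Its total was 4012 wildtype and 6183 knockout counts (log2 0.46, 0.34 to 0.57), a 1.37-fold difference. A single run of 16 windows, from 34905301 to 34906900, ranged from 66 to 99 wildtype and 111 to 151 knockout counts per window. It summed to 1318 and 2172 (log2 0.55). Runs of 5, 8, 3 and 7 windows farther on had log2 ratios of 0.58, 0.65, 0.60 and 0.62. The window with the highest counts, from 34907001 to 34907100, had 100 and 155.

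Only 1 run of at least 3 windows in Ehmt2 was lower, from 34911901 to 34912500, with 354 wildtype and 182 knockout counts (log2 -1.13) and 1.5 CpGs per window on average, against 3.875 in the run of 16. The 5 windows beyond the gene end, from 34914301 to 34914800, were low in both libraries, 6 to 14 wildtype and 18 to 34 knockout counts, with a log2 ratio of 1.39. They lie in the neighbouring gene Slc44a4. After matching each window to listed windows of the same CpG count, the log2 ratio of Ehmt2 was 0.088. No listed window lay within 1 kb of the start of Ehmt2, and inside the gene the nearest one lay 2827 bp downstream of it.

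**Figure D3:**
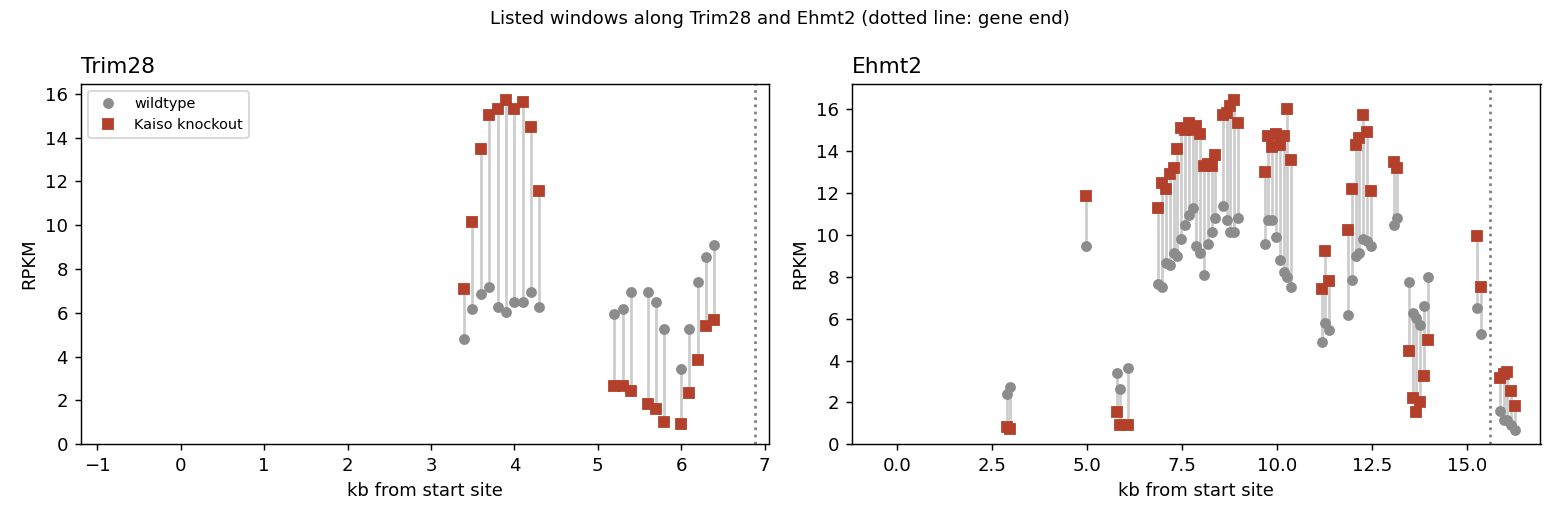
RPKM (y axis) of each listed window along Trim28 and Ehmt2, by kb from the start site. Grey circles are wildtype, red squares Kaiso knockout, joined per window, and the dotted line is the annotated gene end. In Trim28 a block of 10 higher windows is followed by 11 lower ones, while 49 of the 60 Ehmt2 windows are higher.

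Suv39h1 (chromosome X, 8061171 to 8074760, minus strand) leaned the other way. Of its 22 windows 17 were lower in the knockout library, each at least 2-fold, and the total was 451 wildtype and 384 knockout counts (log2 -0.40, -0.81 to 0.0020). In the run from 8066801 to 8067200 wildtype counts were 15, 19, 18 and 15 and knockout counts 4, 1, 1 and 0 (log2 of the sums -3.65). Another run from 8069901 to 8070300 had 47 wildtype and 8 knockout counts (log2 -2.72). The 5 higher windows included 28 and 65 counts from 8063701 to 8063800, with 6 CpGs, and 49 and 79, the highest of the gene, from 8070901 to 8071000, with 4. Their mean was 3.2 CpGs per window, against 1.53 in the lower ones.

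Upstream of the start, Suv39h1 had 24, 24 and 21 wildtype against 11, 11 and 8 knockout counts in 3 adjacent windows from 8075501 to 8075800. This was a log2 ratio of -1.37 (-2.68 to 0.034), not called. It was the only one of the 4 start regions with listed windows that was lower, and with 2 kb on each side it had -1.96 and was called lower. Matching on CpG content also gave a lower call, at -1.45. Both ends together had 124 wildtype and 47 knockout counts (log2 -1.57, -2.63 to -0.54) and were called lower, against 13.3% of 14844 genes with the minimum at both ends.

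Suv39h2 (chromosome 2, 3455815 to 3474986, minus strand), the paralogue with prominent expression in testis, had 22 listed windows, in which wildtype counts summed to 848 and knockout counts to 909 (log2 -0.068, -0.35 to 0.21). All 22 also lie inside Dclre1c on the other strand (3424061 to 3474211), which ends short of the Suv39h2 start, so the windows belong to both genes. The total hid opposite parts. From 3457101 to 3457500 counts were 40, 40, 37 and 26 in wildtype and 19, 11, 2 and 8 in knockout (log2 -2.01). From 3463201 to 3463700 they were 51, 59, 52, 41 and 26 in wildtype and 93, 110, 102, 81 and 46 in knockout (log2 0.75). The windows nearest the start, from 3473601 to 3473800, had 5 wildtype and 16 knockout counts each, and lay 1186 bp or more from it.

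Trim28 (chromosome 7, 13024152 to 13031032, plus strand), the corepressor that links zinc finger proteins to Setdb1, split into a higher and a lower block. The windows between these blocks were not listed. All 10 windows from 13027501 to 13028500 were higher, with 42 to 63 wildtype and 70 to 155 knockout counts per window, 557 and 1319 in sum (log2 1.08). The highest summed counts were 63 and 148, from 13027801 to 13027900, and 57 and 154, from 13028201 to 13028300. All 11 listed windows from 13029301 to 13030600 were lower. Within these, 3 windows from 13029701 to 13030000 had 61, 57 and 46 wildtype and 18, 16 and 10 knockout counts (log2 -2.07). Median wildtype RPKM was alike in the higher and lower windows, 6.38 and 6.50, while knockout medians were 14.8 and 2.44. Single windows ranged in wildtype from 4.79 to 7.18 in the higher block and from 3.42 to 9.12 in the lower one. The blocks offset each other in the gene total of 1184 and 1618 counts (log2 0.28, 0.061 to 0.50).

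Runs of at least 10 higher windows held 7.69% of all listed windows, so a block of that length is not rare. The higher block averaged 2.6 CpGs per window and the lower windows 1.64. Within 1 kb of the Trim28 start no window was listed. Its other end had 296 wildtype and 179 knockout counts (log2 -0.89, -1.45 to -0.33), not called.

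The HP1 genes had the smallest shares of their windows listed among the 10 genes, 3.21% to 5.56%. Cbx1 (HP1 beta, chromosome 11, 96788680 to 96808982, plus strand) had 11, with 239 wildtype and 160 knockout counts. Upstream of its start, from 96788301 to 96788600, wildtype counts were 7, 1 and 1 and knockout counts 24, 18 and 15 (log2 2.49, 0.52 to 5.82), on fewer fragments than the minimum. With 2 kb on each side of the start the log2 ratio was 0.42 and not called, as 2 lower windows downstream of the start enter. The other 8 windows were all lower, and without the flanks Cbx1 had a log2 ratio of -1.29 (-2.05 to -0.60) and was called lower. Of these 8 windows, 2 also lie in the pseudogene Gm11517. With only windows of a deposited p-value of at most 0.01, the span had 0.084 and was not called. In the body, 3 windows from 96803301 to 96803600 had 42, 43 and 40 wildtype and 20, 22 and 23 knockout counts.

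Cbx3 (HP1 gamma, chromosome 6, 51470154 to 51483704, plus strand) had the fewest, 5 of 156 windows. Wildtype counts were 61, 71, 82, 41 and 57 and knockout counts 101, 115, 113, 23 and 85. Hence 4 of the 5 were higher, by log2 ratios of 0.29 to 0.56, and the total was 0.32 (-0.12 to 0.75). Its start, beside Hnrnpa2b1 on the other strand, had no listed window within 1 kb.

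Cbx5 (HP1 alpha, chromosome 15, 103191546 to 103239904, minus strand) had 28 windows, which summed to 930 wildtype and 989 knockout counts (log2 -0.079, -0.34 to 0.19). Its end opposite the start stood apart from the body. There, from 103191101 to 103191600, wildtype counts were 32, 32, 31, 21 and 10 and knockout counts 2, 1, 1, 0 and 0. With a further window of 13 and 4 counts the end region had a log2 ratio of -4.29 (-7.40 to -2.34) and was called lower, as were 18.1% of 9790 such ends of all genes. With 2 kb on each side of this end the log2 ratio was -0.21 and not called, since 7 windows from 103189501 to 103190500 had 177 wildtype and 298 knockout counts. Without that end region the body of Cbx5 had 0.14 (-0.14 to 0.42).

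Higher windows of Cbx5 were 4 from 103199501 to 103199900, with 85, 75, 60 and 41 wildtype and 124, 128, 103 and 80 knockout counts, and 4 from 103206401 to 103206800, with 17 to 20 and 33 to 44. Others lay 1552 to 1852 bp downstream of the start, with 21, 21 and 22 wildtype and 45, 44 and 42 knockout counts. One more window without a knockout count, from 103234701 to 103234800, had 10 wildtype counts. The start itself, beside Hnrnpa1 on the other strand, had no listed window within 1 kb.

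Morc1 (chromosome 16, 48431237 to 48630905) had 208 windows in the table, 99 higher and 109 lower, summing to 9942 wildtype and 12204 knockout counts (log2 0.13, 0.050 to 0.20). The tables used here give no start site for it, so its ends are named by coordinate. At the low-coordinate end all 10 listed windows were higher. In the run of 6 from 48431101 to 48431700 wildtype counts were 7, 11, 10, 10, 9 and 4 and knockout counts 86, 97, 93, 68, 48 and 27. In RPKM the range was 0.456 to 1.25 in wildtype and 2.74 to 9.84 in knockout. The end region had 106 and 569 counts (log2 2.26, 1.67 to 2.94) and was called higher, as were 27.5% of 9830 low-coordinate ends of all genes, and it had 2.92 with 500 bp on each side.

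The window with 9 CpGs at this end, from 48431201 to 48431300, had 11 wildtype and 97 knockout counts. The window of Morc1 with the highest counts, from 48580601 to 48580700, lay in the body and had 128 and 167. The body had a log2 ratio of 0.074 (-0.0036 to 0.15). Its 17 higher runs, the end included, had log2 ratios of 0.34 to 2.87 and its 13 lower runs -3.96 to -0.89. A run of 12 windows from 48496601 to 48497800, with 6.25 CpGs on average, had 71 to 115 wildtype and 134 to 168 knockout counts per window (log2 of the sums 0.52). The strongest lower run, from 48594501 to 48594800, had 83 wildtype and 6 knockout counts in 3 windows. Adjacent windows from 48606401 to 48606600 had 17 and 12 wildtype counts and 0 knockout counts. They also lie in the lncRNA gene Gm41458, which holds 14 of the listed windows of Morc1.

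**Figure D4:**
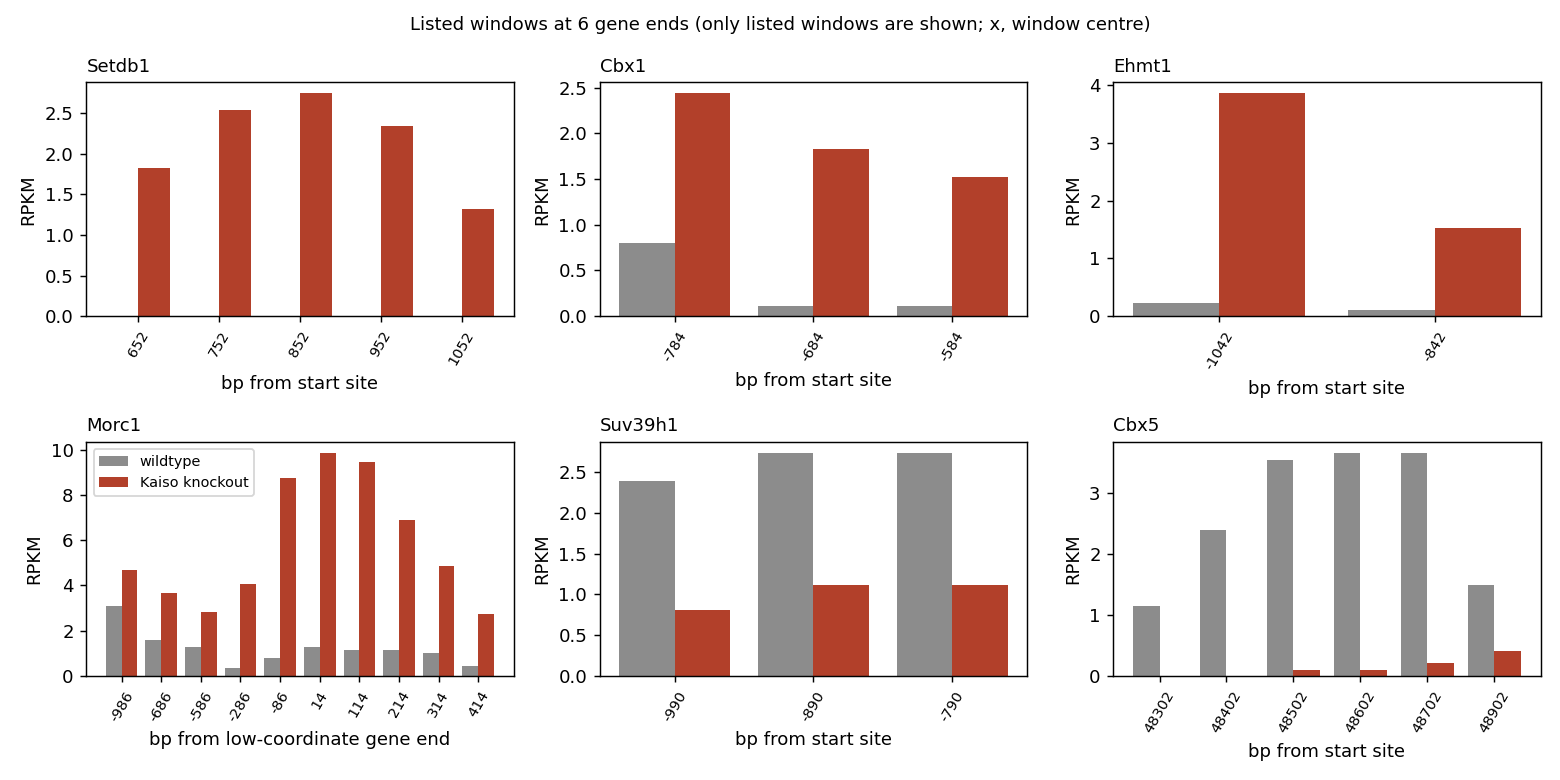
RPKM (y axis) of the listed windows at 6 gene ends, wildtype in grey and Kaiso knockout in red, by distance of the window centre from the start site or, for Morc1, from the low-coordinate gene end. Windows outside the table are not drawn, and x positions are not to scale. Setdb1 has no wildtype reads, Ehmt1, Cbx1 and Morc1 are higher in knockout, and Suv39h1 and the end of Cbx5 are higher in wildtype.

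Direction followed CpG content in these genes as in the whole table. Of windows with 1 CpG, 33.5% of 200 were higher in the knockout library, against 37.8% of all listed windows. The share was 43.6% of 149 with 2 CpGs (all: 49.2%), 63.04% of 92 with 3 (71.0%) and 90.6% of 32 with 4 (91.7%). All 42 windows with 5 or more CpGs were higher (98.9%), 19 of them in Morc1 and 12 in Ehmt2. After matching on CpG content 4 of the 10 genes lay above 0, with a median log2 ratio of -0.14 against 0.025 for all spans. Setdb1 kept the top value, 0.36, and Cbx1 (-0.81) and Suv39h1 (-0.65) the bottom ones.

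**Figure D5:**
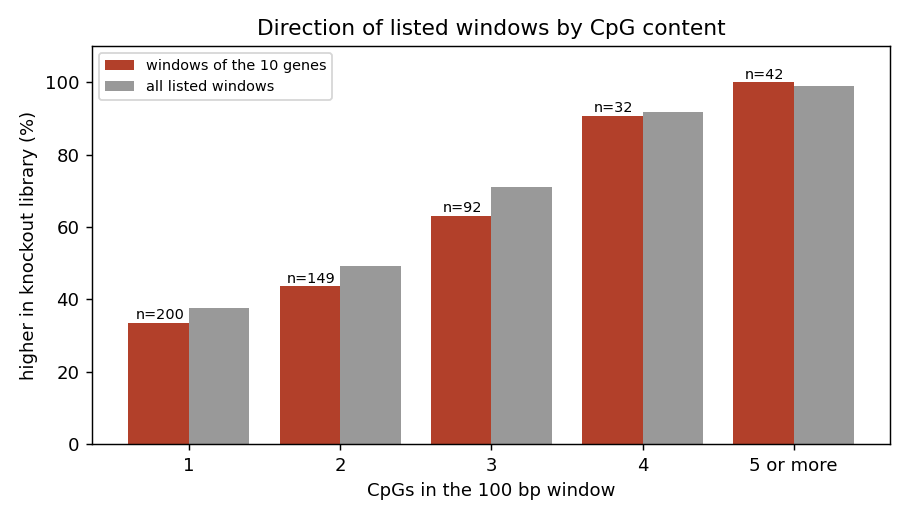
Percent of windows with a higher knockout than wildtype value (y axis) by CpGs per 100 bp window (x axis), for the 515 windows of the 10 genes (red, n above the bar) and all listed windows (grey). The share goes from 33.5% at 1 CpG to 100% at 5 or more.

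Other genes of silencing pathways, 36 in number, were read the same way. Over spans, 2 were called higher (9.64% of all spans), 2 lower (5.64% of all) and 32 neither, with a median log2 ratio of 0.25 against 0.31 over all. Higher were Morc2b, a MORC family gene (2.11, 1.72 to 2.50), and the histone demethylase gene Kdm4d (1.97, 1.51 to 2.44). Lower were Kdm3a, another demethylase gene (-1.44, -1.93 to -0.94), and Resf1, a Setdb1-associated factor (-1.53, -2.32 to -0.72). Kmt5c, which encodes a methyltransferase of histone H4, had 0.97 (0.72 to 1.22) and was not called. At start regions 8 of the 36 reached the minimum, 5 of them higher (Morc2a, Kdm4d, Morc4, Atf7ip and Zfp644), 1 lower (Uhrf1) and 2 neither, against 51.9% higher and 13.8% lower of all 5609 start regions. Morc2a, a partner of the HUSH silencing complex, had 21 wildtype and 257 knockout counts (log2 3.45, 2.21 to 5.18), and the maintenance methylation factor gene Uhrf1 had 72 and 25 (-1.69, -3.37 to -0.36).

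Of 4 Polycomb Cbx genes, relatives of the HP1 genes whose proteins bind another histone mark, 2 spans were called higher and 0 lower, against 9.64% and 5.64% of all spans (median 0.80). Cbx8 had 1.07 (0.82 to 1.32) and Cbx6 1.01 (0.81 to 1.22). Cbx2 had 0.59 (0.44 to 0.75) and Cbx7 0.58 (0.49 to 0.66), neither called. Spans of Cbx1, Cbx3 and Cbx5 lay lower, between -0.75 and 0.32, and this difference was not tested.

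Testis DNA mixes germ and somatic cells, whose methylation differs at known genes. In a list of 16 germline genes methylated in somatic cells, 15 of 15 start regions with the minimum were called higher, against 51.9% of all start regions, with a median log2 ratio of 2.96 and 1482 wildtype against 12476 knockout counts in sum. Per gene these were 32 to 189 wildtype and 448 to 1255 knockout counts. Of 10 maternally methylated imprinted genes, 7 of 7 with the minimum were higher, with a median of 3.49 and 469 against 5505 counts. Over spans, 4 of the 16 germline genes were called higher (median 0.52) and 7 of the 10 imprinted genes (median 1.30), against 9.64% of all spans. At start regions the lists ranged from 1.93 to 4.81 and from 2.85 to 4.34. Of the silencing genes, the Morc1 end (2.26) and the Cbx1 start (2.49) lay inside the first range and under the second. The Ehmt1 start (3.97) lay inside both and the Suv39h1 start (-1.37) below both, and those of Ehmt1 and Cbx1 were under the minimum of fragments. For Setdb1, with no wildtype counts, the ratio is a bound of 2.79. The part of the cell mixture in these values was not tested, and with bulk DNA of 1 testis sample per genotype it cannot be told apart from methylation within a cell type.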

How the data were processed

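Reads were aligned with Bowtie2 2.2.6 to mm10 and edgeR was used, per the submitters' processing notes. The table has the column layout of MEDIPS, per the file headers; no source used here states the read extension. The deposited counts are whole reads per 100 bp window, and the authors' RPKM is that count per kilobase of window scaled to library reads. The CpG number and the relative methylation score of the authors are scores of each window, and the latter was not used for comparisons. The log2 fold change of the authors has wildtype in the numerator and served for 1 alternative scaling. All 2537435 windows had a deposited p-value under 0.05, and the lowest summed count was 10. Another 10 columns of values per sample or group were not used.

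Ratios are knockout over wildtype, scaled by library reads, computed with Python 3.11.15, pandas 2.3.3 and scipy 1.17.1. Window sums were divided by 4 to approximate fragments, as a fragment is counted in several windows. A library at 0 was set to a floor of 3 fragments (12 window counts; 3 counts in a single window). Gene positions and starts came from RefSeq GRCm38.p6 as spans and start sites without exons. The start region is 1 kb on each side of the 5′-most start; where no start was given, the ends were used. Runs were at least 3 adjacent windows of 1 direction, picked by that direction. By rule, all 10 genes are named with their start windows, longest run, window of highest counts and windows at 0, and at most 4 genes of each other list by the interval bound farthest from 0. Other runs and windows, the ends opposite the starts, and Resf1, Uhrf1 and Atf7ip were chosen after their values were seen. The calls were tested on simulated data, drawn from the same counting model, without variation between animals or selection of windows on p. The genes and lists were chosen with earlier results of these data known. The Polycomb Cbx list was analysed as 4 genes, without 1 more gene that is not reported here.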

Additional observations from a re-analysis of the deposited data

How the results depend on the processing

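No paired analysis was possible because the series holds 1 library per genotype, and no library could be left out. Across the 12 alternatives for spans, 0 of 10 genes were called higher throughout. Spans called lower numbered 1 with scaling by total autosomal counts, 1 without flanks, 1 with a fold threshold of 1.5, and 2 when CpG-dense windows (at least 5 CpGs) were centred on 0. Of start regions with the minimum, 1 of 2 was called higher and 0 lower as reported. Those called higher numbered 2 of 3 with sums divided by 3, 3 of 4 with sums divided by 1 and 3 of 4 with a minimum of 10 fragments. They were 2 of 7 with 2 kb on each side and 0 with 500 bp, where no start region reached the minimum. Those called lower numbered 1 of 2 with autosomal counts, 1 of 2 with CpG-dense windows centred on 0 and 1 of 2 within CpG classes. They were 1 of 3 with sums divided by 3, 1 of 4 with sums divided by 1, and 1 of 7 with 2 kb. Shares over all genes were not computed under these alternatives. With 2 kb on each side the Setdb1 start turned to -0.080, as 5 lower windows upstream enter. Of the 515 windows 113 were higher with CpG-dense windows centred on 0, against 261. The Cbx1 start had 0.42 with 2 kb, and the Cbx1 span 0.084 with a deposited p of at most 0.01. The scalings moved all log2 ratios by -0.27 (autosomal counts), -0.67 (CpG-dense windows) and 0.13 (the authors' fold change). The alternatives for the gene ends and for the window count were added after seeing the data. Start regions of Ehmt1 and Cbx1 rest on few fragments, and selection on p, depth and 1 library per genotype limit each value.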
